A study of Mus musculus with 6 samples.

Results

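The genes of MHC class I antigen presentation and of the immunoproteasome were compared between mouse neurofibromas (benign nerve sheath tumours) with and without a knockout of the microRNA miR-155. The members were chosen by symbol: the heavy chains H2-K1 and H2-D1, the light chain B2m, the peptide transporter and loading genes Tap1, Tap2 and Tapbp, the catalytic immunoproteasome genes Psmb8, Psmb9 and Psmb10, and the transactivator Nlrc5. All 10 were among the 24421 gene symbols of the count table, and all 10 passed the filter on low counts, as did 15604 genes in all. All 6 tumours arose on a C57BL/6J background in Nf1fl/fl; DhhCre mice, in which the promoter of Dhh (Desert hedgehog) drives Cre and so deletes floxed Nf1. The deletion is aimed at Schwann cells and their precursors, while the RNA came from tumour tissue that also holds leukocytes, fibroblasts and endothelial cells. The group miR155KO_Nf1KO (tumours MiRNC149, MiRNC640 and MiRNC670) has the genotype label Mir-155 KO in addition, and the group Nf1KO (tumours Nf803, Nf809 and Nf827) the genotype label Nf1 -/-. No drug was given, and the study set out to look for possible targets of miR-155. Each group held tumours of both sexes, so at least 2 animals, but nothing in the labels says that each tumour came from its own animal. The spread behind the p-values is that between these 6 samples and may in part be technical.

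Several class I genes were lower in the tumours that lacked miR-155. The heavy chains H2-K1 and H2-D1, their light chain B2m, the transporter subunit Tap1 and the immunoproteasome subunit Psmb9 passed the test, at 2.46-fold to 4.19-fold lower group means (n = 3 tumours in each group). The remaining 5 members also had negative log2 fold changes and did not pass it, with an adjusted p of 0.0768 for Psmb8, 0.173 for Nlrc5, 0.244 for Tapbp, 0.462 for Tap2 and 0.491 for Psmb10. The threshold for a call was an adjusted p under 0.05 in edgeR's quasi-likelihood test, with Benjamini-Hochberg adjustment over all genes tested. By that rule 4.74% of all tested genes were called lower and 5.22% were called higher, and of the members 5 of 10 were lower and 0 of 10 higher. The median log2 fold change was -1.35 over the members and 0.007 over all genes tested.

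MHC class I molecules show peptides from inside a cell to CD8 T cells. Proteasomes cut proteins into peptides, and in immune cells, or in other cells exposed to interferon, the catalytic subunits encoded by Psmb8, Psmb9 and Psmb10 take the place of those encoded by Psmb5, Psmb6 and Psmb7. The transporter made of TAP1 and TAP2 carries the peptides into the endoplasmic reticulum, where tapasin (Tapbp) holds the transporter and the empty class I molecule together until a peptide is bound. NLRC5 is drawn to class I promoters by factors bound at a conserved group of sites and raises their transcription. Nearly all nucleated cells carry class I, and leukocytes carry much of it.

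Of the members, 7 lie on chromosome 17, within or next to the MHC (GRCm38, GENCODE M21; all are protein-coding genes). From left to right these are Tapbp at chr17:33915899-33929292 (+), H2-K1 at chr17:33996017-34000347 (-), Psmb9 at chr17:34181987-34187764 (-), Tap1 at chr17:34187553-34197225 (+), Psmb8 at chr17:34197721-34201454 (+), Tap2 at chr17:34203527-34216321 (+) and H2-D1 at chr17:35262730-35267499 (+). In this annotation Psmb9 and Tap1 overlap at their 5′ ends on opposite strands. B2m lies at chr2:122147686-122153083 (+), Psmb10 at chr8:105935735-105938444 (-) and Nlrc5 at chr8:94434356-94527272 (+).

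Promoter windows of 300 bases (250 before to 50 after the annotated start) were taken from RefSeq on GRCm38.p6, where 8 of the 10 members matched; Tap2 and Nlrc5 had no match. The windows of 4 members that were called lower, and of Tapbp, which was not, are shown so that the motifs known from class I promoters can be read beside the values. Capitals mark matches, on either strand, to GGGGATTCC (an NF-kB motif of the class I enhancer), GAANNGAAA (an interferon response motif), TGACG (the core of the site alpha that NLRC5-containing complexes use) and CCAAT (the box bound by NF-Y). The windows are H2-K1 at chr17:34000298-34000597 (-), H2-D1 at chr17:35262844-35263143 (+), B2m at chr2:122147437-122147736 (+), Tap1 at chr17:34187306-34187605 (+) and Tapbp at chr17:33919228-33919527 (+).
H2-K1: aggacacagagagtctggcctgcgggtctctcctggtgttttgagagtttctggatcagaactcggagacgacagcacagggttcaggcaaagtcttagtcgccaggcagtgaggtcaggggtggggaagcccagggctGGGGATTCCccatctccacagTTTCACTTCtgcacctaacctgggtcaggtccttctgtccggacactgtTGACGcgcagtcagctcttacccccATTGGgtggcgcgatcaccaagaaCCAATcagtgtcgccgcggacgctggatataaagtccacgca
H2-D1: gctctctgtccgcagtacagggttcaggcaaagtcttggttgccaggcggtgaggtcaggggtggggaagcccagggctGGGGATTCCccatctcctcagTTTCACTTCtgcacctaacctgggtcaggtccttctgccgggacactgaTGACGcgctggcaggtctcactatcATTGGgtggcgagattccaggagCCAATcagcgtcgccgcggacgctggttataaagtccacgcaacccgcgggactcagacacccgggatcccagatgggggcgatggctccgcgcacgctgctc
B2m: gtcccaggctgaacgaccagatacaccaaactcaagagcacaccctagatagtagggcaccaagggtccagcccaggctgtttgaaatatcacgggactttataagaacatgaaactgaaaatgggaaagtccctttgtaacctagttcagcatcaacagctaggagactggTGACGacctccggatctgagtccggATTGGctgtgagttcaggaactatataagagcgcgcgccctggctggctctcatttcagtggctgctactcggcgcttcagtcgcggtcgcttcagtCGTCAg
Tap1: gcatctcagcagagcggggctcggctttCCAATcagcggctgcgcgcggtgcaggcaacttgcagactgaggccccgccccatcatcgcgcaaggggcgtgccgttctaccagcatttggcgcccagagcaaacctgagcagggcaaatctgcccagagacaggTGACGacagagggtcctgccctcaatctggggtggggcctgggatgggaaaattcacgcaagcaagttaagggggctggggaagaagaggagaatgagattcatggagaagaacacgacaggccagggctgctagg
Tapbp: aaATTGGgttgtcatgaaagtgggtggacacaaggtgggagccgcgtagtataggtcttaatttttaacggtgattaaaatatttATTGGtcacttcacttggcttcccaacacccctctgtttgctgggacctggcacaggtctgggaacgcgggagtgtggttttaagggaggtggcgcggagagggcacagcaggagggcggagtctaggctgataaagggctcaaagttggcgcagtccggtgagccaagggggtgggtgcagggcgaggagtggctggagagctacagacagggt
The H2-K1 and H2-D1 windows each held all of these motifs, with 2 CCAAT matches each, and the windows agreed at 211 of 239 aligned bases (88.3%). B2m had 2 TGACG matches and 1 CCAAT match, and Tap1 had 1 of each. The B2m window also holds gaaactgaaa, which GAANNGAAA misses because the spacing is 1 base longer. Other spellings of an interferon response motif were not sought, so a window without a match to GAANNGAAA may still hold such an element. The Psmb9 window runs on the other strand over 275 of the same bases as the Tap1 window, with 226 bases between the start sites, and so held the same 2 matches. Tapbp had 2 CCAAT matches and no match to the other motifs. Its window, set by the RefSeq start, lies inside the GENCODE M21 gene, which begins at chr17:33915899. The bases before that GENCODE start were not searched. The windows of H2-D1, Psmb8 and Psmb9 also lie inside the GENCODE M21 coordinates of their genes. Of the constitutive subunit genes, none of which was called, Psmb5 had 1 TGACG match and Psmb6 had 2 TGACG matches and 1 GAANNGAAA match. Psmb7 had no promoter window, so it was not searched. The Psmb8 window had a match only to TTCNNNGAA (a gamma interferon activated sequence), which the other members' windows lacked, and the Psmb10 window matched none. Among 32851 promoter windows of the same length, GGGGATTCC was in 0.25%, GAANNGAAA in 7.52%, TGACG in 20.8%, CCAAT in 37.4% and TTCNNNGAA in 8.3%. A match describes these letters only and is not evidence of binding.

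The tables held 13061129 to 16333181 reads per tumour, and the members' counts ran from 48 reads (Psmb9 in MiRNC670) to 72194 reads (B2m in Nf827). The host transcript of miR-155, Mir155hg, was at 0.201 ± 0.121 CPM (counts scaled to 1000000 reads, SD, n = 3) in miR155KO_Nf1KO and 4.32 ± 0.373 CPM in Nf1KO, with no overlap (log2 fold change -4.34, SE 0.54, edgeR adjusted p = 0.0186). Expression of Xist and of Y-linked genes placed MiRNC149, Nf803 and Nf827 as female and MiRNC640, MiRNC670 and Nf809 as male. Skeletal muscle genes stood apart in MiRNC670 and Nf809, with 2178 and 2344 summed CPM against 7.03 to 401 in the other tumours. Adipocyte genes stood apart in MiRNC640, with 1994 summed CPM against 33.3 to 554 in the other tumours, and 0 of 6 were called (median log2 fold change 2.16, all 6 positive).

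H2-K1 and H2-D1 encode the classical class I heavy chains of this strain, which hold the peptide. H2-K1 was at 238 CPM in MiRNC149, 269 in MiRNC640 and 168 in MiRNC670, and at 395 in Nf803, 477 in Nf809 and 907 in Nf827. The groups did not overlap, and Nf827 was far above the other tumours. Mean levels were 225 ± 51.7 against 593 ± 275 CPM (log2 fold change -1.40, SE 0.33, adjusted p = 0.0425). H2-D1 was at 255 CPM in MiRNC149, 257 in MiRNC640 and 138 in MiRNC670, and at 433 in Nf803, 511 in Nf809 and 872 in Nf827. Again MiRNC670 was lowest, Nf827 highest and the groups apart (log2 fold change -1.48, SE 0.33, adjusted p = 0.0383). Of the windows of 50 bases in their annotated transcripts, 9.63% for H2-K1 and 12.8% for H2-D1 also occur in other genes, among them each other, so their counts are uncertain to the extent that such reads were shared or dropped.

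B2m encodes beta-2 microglobulin, the light chain that every class I molecule needs to reach the cell surface, and none of its windows occurs in another gene. B2m was at 1459 CPM in MiRNC149, 1590.1 in MiRNC640 and 1163 in MiRNC670, and at 2734 in Nf803, 2794 in Nf809 and 4834 in Nf827. The miR155KO_Nf1KO tumours lay close together and below all Nf1KO tumours. The log2 fold change was -1.30 (SE 0.26, 95% interval -1.90 to -0.70, adjusted p = 0.028), the smallest adjusted p among the members.

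**Figure D1:**
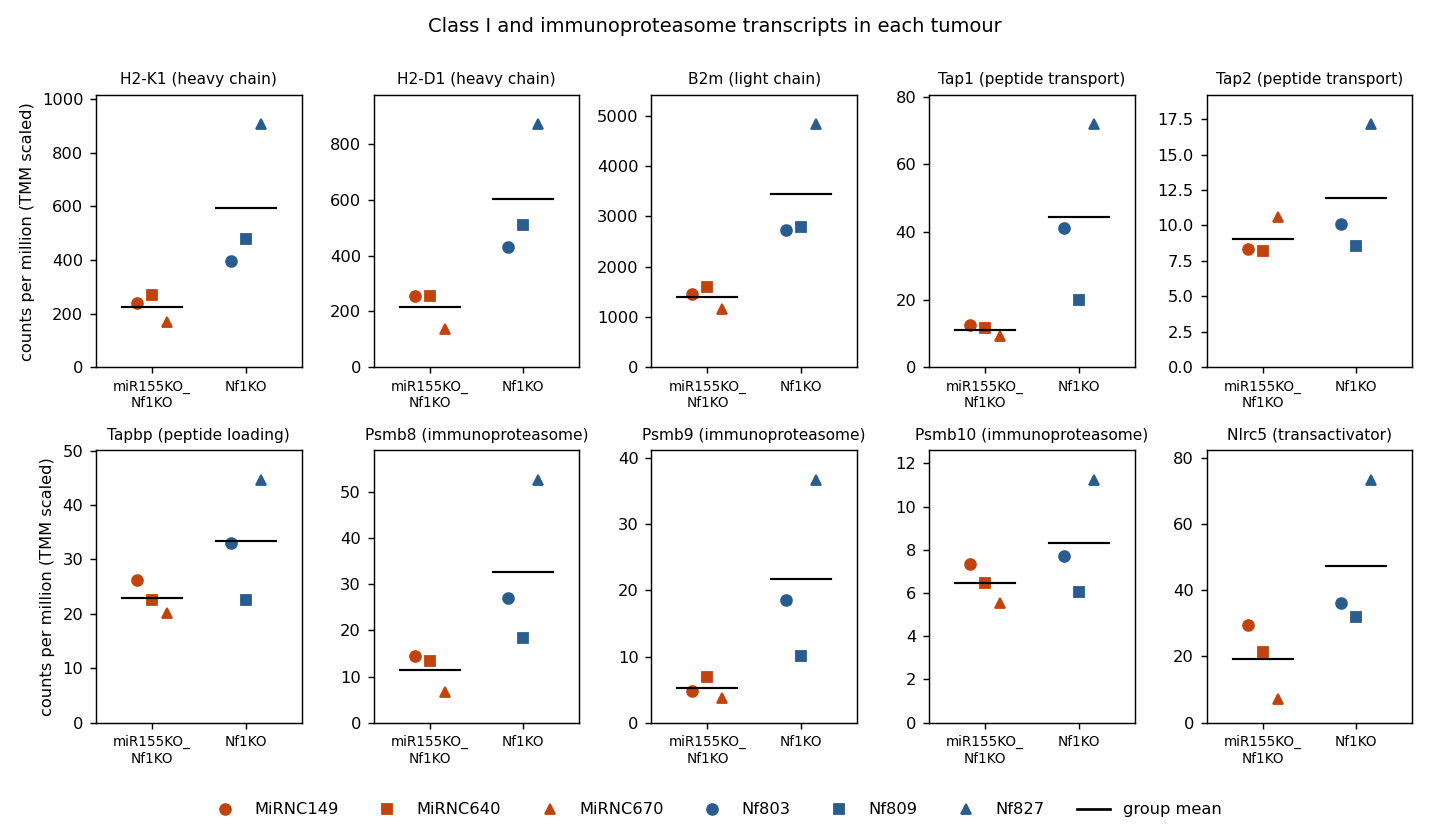
CPM (TMM scaled, linear axes from 0, a scale of its own for each gene) of the 10 members in each of the 6 tumours, with symbols for single tumours and lines for the group means. Nf827 is the highest tumour in all 10 panels, and the groups overlap for Tap2, Tapbp and Psmb10.

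Of the subunits of the peptide transporter, Tap1 passed the test and Tap2 did not. Tap1 was at 12.4 CPM in MiRNC149, 11.6 in MiRNC640 and 9.11 in MiRNC670, and at 41.2 in Nf803, 19.9 in Nf809 and 71.8 in Nf827. All miR155KO_Nf1KO tumours were below the lowest Nf1KO tumour, Nf809, and the Nf1KO tumours were spread widely. The fall in Tap1 was 4.0-fold in group means (log2 fold change -2.0, SE 0.44, adjusted p = 0.0356). Tap2, which encodes the partner subunit, was at 8.31, 8.17 and 10.6 CPM in MiRNC149, MiRNC640 and MiRNC670, and at 10.1, 8.53 and 17.1 CPM in Nf803, Nf809 and Nf827. Those groups overlapped, and Tap2 was the member for which MiRNC670 was not the lowest tumour (log2 fold change -0.40, SE 0.31, 95% interval -1.12 to 0.32, adjusted p = 0.462).

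Tapbp encodes tapasin, which bridges the transporter and the heavy chain. Its levels were 26.3, 22.5 and 20.2 CPM in MiRNC149, MiRNC640 and MiRNC670, and 33.0, 22.5 and 44.7 CPM in Nf803, Nf809 and Nf827. MiRNC149 was above Nf809, so the groups overlapped (log2 fold change -0.54, SE 0.26, 95% interval -1.15 to 0.08, adjusted p = 0.244).

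Of the catalytic subunits of the immunoproteasome, Psmb9 passed the test and Psmb8 and Psmb10 did not. Psmb9, encoding the subunit beta1i, was at 4.76 CPM in MiRNC149, 6.96 in MiRNC640 and 3.80 in MiRNC670, and at 18.5 in Nf803, 10.01 in Nf809 and 36.8 in Nf827. Its groups were apart, and its fall was the largest among the members (log2 fold change -2.07, SE 0.49, 95% interval -3.22 to -0.92, adjusted p = 0.0421). In GENCODE M21 Psmb9 and Tap1 overlap on opposite strands, whereas their RefSeq start sites lie 226 bases apart with no overlap. No source used here gives the annotation or the strand setting behind the counts. It is therefore not known whether some reads over their first bases were counted for the wrong gene or dropped. Psmb8, encoding beta5i, was at 14.5, 13.3 and 6.73 CPM in MiRNC149, MiRNC640 and MiRNC670, and at 27.1, 18.4 and 52.7 CPM in Nf803, Nf809 and Nf827. The groups did not overlap, yet Psmb8 did not pass in edgeR (log2 fold change -1.50, SE 0.44, adjusted p = 0.0768), whereas DESeq2 gave an adjusted p of 0.00611. Psmb10, encoding beta2i, was at 7.34, 6.48 and 5.54 CPM in MiRNC149, MiRNC640 and MiRNC670, and at 7.69, 6.06 and 11.2 CPM in Nf803, Nf809 and Nf827. MiRNC149 and MiRNC640 were above Nf809 (log2 fold change -0.37, SE 0.30, 95% interval -1.07 to 0.34, adjusted p = 0.491).

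Nlrc5, the class I transactivator, was at 29.5 CPM in MiRNC149, 21.2 in MiRNC640 and 7.13 in MiRNC670, and at 36.1 in Nf803, 32.0 in Nf809 and 73.4 in Nf827. No miR155KO_Nf1KO tumour reached the lowest Nf1KO tumour, but MiRNC149 came close to Nf809 and the spread within each group was wide. The log2 fold change was -1.29 (SE 0.53, 95% interval -2.53 to -0.04, adjusted p = 0.173), and the DESeq2 adjusted p was 0.0511.

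**Figure D2:**
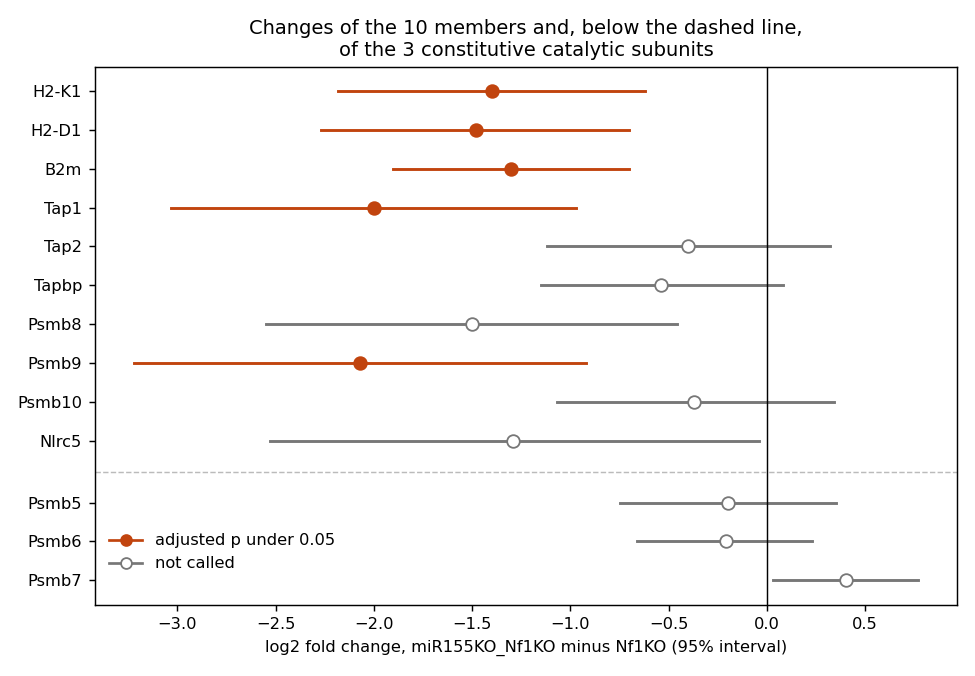
Log2 fold changes (miR155KO_Nf1KO minus Nf1KO, points) with 95% intervals (bars) from edgeR for the 10 members and, below the dashed line, for the constitutive subunit genes Psmb5, Psmb6 and Psmb7. The 5 called members are filled and lie between -2.07 and -1.30, and all 10 members lie left of 0.

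Across the members, 7 of 10 had every miR155KO_Nf1KO tumour below every Nf1KO tumour, an arrangement that 16.3% of all tested genes had in this direction. DESeq2 called 6 of 10 members lower, Psmb8 being added, where it called 9.44% of all tested genes lower. MiRNC670 was the lowest of the 6 tumours for 9 members and Nf827 the highest for all 10. The edgeR calls were not stable with 1 tumour fewer: none of the 5 was kept when MiRNC149, MiRNC640, MiRNC670, Nf803 or Nf827 was left out, and 6 members were called without Nf809. Over the whole table, 0 genes were called lower without MiRNC670, Nf803 or Nf827, 43 (0.268%) without MiRNC640, 667 (4.16%) without MiRNC149 and 1059 (6.61%) without Nf809. Without Nf827 the log2 fold changes of all 10 members were nearer to 0, at -0.96 for H2-K1, -1.13 for H2-D1, -0.98 for B2m, -1.47 for Tap1 and -1.46 for Psmb9. They were then -0.98 for Psmb8, -0.82 for Nlrc5, -0.27 for Tapbp, -0.09 for Psmb10 and -0.05 for Tap2. All 10 log2 fold changes were negative in each fit that left out 1 tumour, and DESeq2 kept the same 5 calls in each. DESeq2 called 5.73% to 9.99% of all genes lower in those fits. With sex as a covariate only B2m was called (adjusted p = 0.0479), in a fit that called 3.22% of all tested genes lower. Comparing within one sex, which leaves 1 tumour against 2, all 10 members were lower in the female miR155KO_Nf1KO tumour than in both female Nf1KO tumours, and 8 of 10 were lower in both male miR155KO_Nf1KO tumours than in Nf809, with Tap2 and Psmb10 overlapping. Of all tested genes, 39.2% had that arrangement in females and 39.9% in males.

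Per kilobase of annotated exons, which allows levels of different genes to be set side by side, B2m led in Nf1KO at 4016 CPM per kb, followed by H2-D1 at 235 and H2-K1 at 202. Next came Psmb8 at 9.67, Tapbp at 9.20, Tap1 at 8.09, Psmb9 at 5.95, Nlrc5 at 5.56, Psmb10 at 4.89 and Tap2 at 3.15 CPM per kb. In miR155KO_Nf1KO, B2m, H2-D1 and H2-K1 again led, at 1633, 84.0 and 76.6 CPM per kb, but Tapbp came next at 6.34 and Psmb10 at 3.79. Psmb9 was last there at 1.41 CPM per kb, and Tap1 was at 2.02, below Tap2 at 2.39. In Nf1KO, neighbours in this order differed by more than the larger of their SDs only for B2m over H2-D1, H2-K1 over Psmb8 and Psmb10 over Tap2. In miR155KO_Nf1KO they did so for B2m over H2-D1, H2-K1 over Tapbp, Tapbp over Psmb10 and Tap1 over Psmb9.

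The proportions of immune to constitutive catalytic subunits, which need no library scaling, were taken from the read counts within each tumour. Psmb9 per read of Psmb6, whose product it replaces, was 0.277, 0.333 and 0.20 in MiRNC149, MiRNC640 and MiRNC670, and 1.02, 0.459 and 1.41 in Nf803, Nf809 and Nf827. Psmb8 per read of Psmb5 was 1.28, 1.06 and 0.867 in the first group and 2.30, 1.59 and 4.06 in the other. For both ratios every miR155KO_Nf1KO tumour was below every Nf1KO tumour (log2 differences -1.72 and -1.22). Psmb10 per read of Psmb7 overlapped, at 0.116 to 0.173 against 0.153 to 0.302 (log2 difference -0.73). The exact permutation test over 20 splits, two-sided, gave p = 0.1, 0.1 and 0.2 (0.15, 0.15 and 0.2 after Benjamini-Hochberg adjustment over these 3 ratios), where 0.1 is the smallest p that 3 tumours against 3 allow. The Psmb5 counts are uncertain, since 54.1% of its windows also occur in other genes, a pseudogene among them.

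Ratios between members, 6 in all and chosen after the values were seen, are given as a description with no test. Tap1 per read of Tap2 was 1.496, 1.42 and 0.858 in MiRNC149, MiRNC640 and MiRNC670, and 4.08, 2.33 and 4.19 in Nf803, Nf809 and Nf827, with no overlap. Psmb9 per read of Psmb10 was 0.649 to 1.07 against 1.65 to 3.27, also apart. By contrast H2-K1 per read of B2m stayed between 0.144 and 0.188 in all 6 tumours (0.159 ± 0.0129 against 0.168 ± 0.0218). H2-D1 per read of B2m (0.152 ± 0.0295 against 0.174 ± 0.0135), H2-K1 per read of H2-D1 (1.07 ± 0.144 against 0.962 ± 0.0684) and Tap1 per read of Psmb9 (2.22 ± 0.492 against 2.06 ± 0.147) overlapped between the groups as well.

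**Figure D3:**
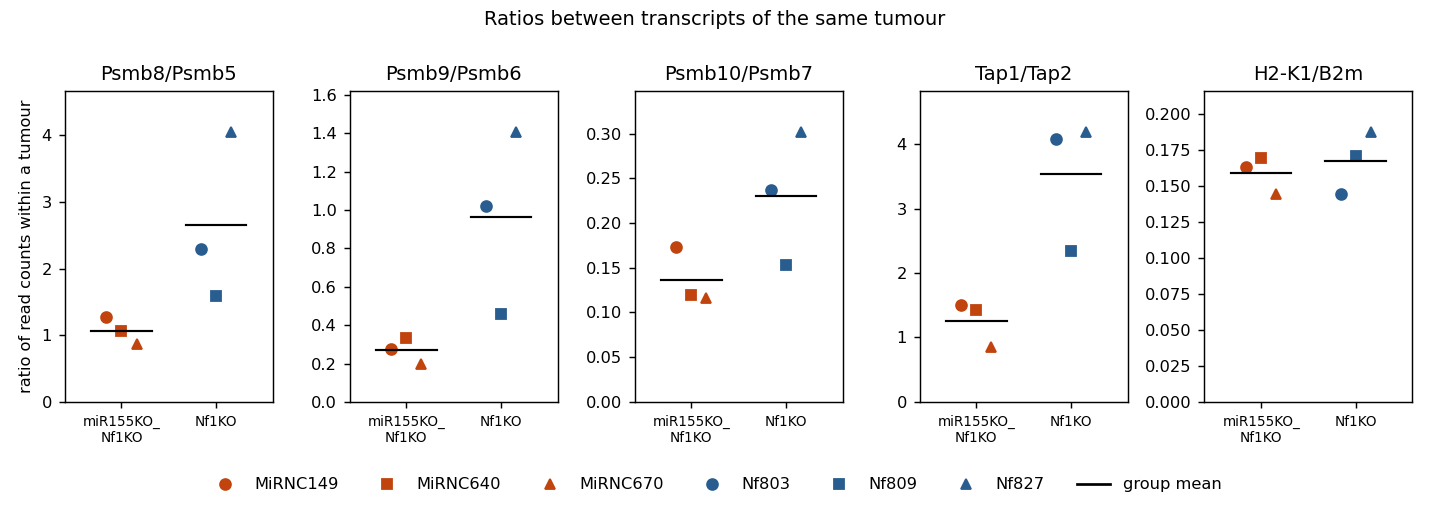
Ratios of read counts within each tumour (no unit, linear axes from 0) for 3 immune to constitutive subunit pairs, Tap1 to Tap2 and H2-K1 to B2m, with lines for group means. The groups are apart for Psmb8/Psmb5, Psmb9/Psmb6 and Tap1/Tap2 and overlap for Psmb10/Psmb7 and H2-K1/B2m.

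The constitutive partners themselves did not pass the test. Psmb5, encoding beta5, was at 10.5 ± 2.47 against 12.1 ± 0.774 CPM (log2 fold change -0.20, SE 0.23), and Psmb6, encoding beta1, at 19.02 ± 1.84 against 22.03 ± 3.99 CPM (-0.21, SE 0.19). Psmb7, encoding beta2, had all 3 miR155KO_Nf1KO tumours above the Nf1KO tumours, at 42.4, 54.2 and 47.9 against 32.5, 39.5 and 37.2 CPM, without passing (0.40, SE 0.16, adjusted p = 0.154). Of the other 20S core and assembly genes, 0 of 16 were called in either direction (median log2 fold change 0.03), with 1 at an unadjusted p under 0.05 in edgeR, which 26.7% of all tested genes reached, and 0 called lower by DESeq2. Psmg4, encoding an assembly chaperone, had the smallest p of that list (-1.67, SE 0.57, adjusted p = 0.111). Its counts were low, at 9, 5 and 8 reads in MiRNC149, MiRNC640 and MiRNC670 and 19, 18 and 37 in Nf803, Nf809 and Nf827. None of the 18 genes of the 19S cap, which feeds proteins into the core, was called (median 0.12), with 2 at an unadjusted p under 0.05 in edgeR and 0 called lower by DESeq2. Psmd1 had the smallest adjusted p among them (0.32, SE 0.12, adjusted p = 0.144). Among the 5 proteasome activator genes none was called in edgeR, and DESeq2 called 1 lower. In edgeR 2 were at an unadjusted p under 0.05, in opposite directions: Psme1 was lower and Psme3 higher (log2 fold change 0.29, SE 0.12). Psme2, named after its values were seen, overlapped between the groups (-0.31, SE 0.37, adjusted p = 0.657). Psme1, which encodes the interferon-inducible activator subunit PA28 alpha, was at 79.4, 93.7 and 91.2 against 127, 113 and 199.99 CPM (log2 fold change -0.74, SE 0.22, adjusted p = 0.0813).

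Among the nonclassical class I chains 3 of 11 tested genes were called lower and 0 higher (median log2 fold change -0.66). Of the 23 listed, 12 had too few reads to test, and 3 had no read in any tumour. How reads with several matches were handled is not given, so few reads need not mean low expression. H2-T23, which encodes Qa-1, a ligand of inhibitory receptors on NK cells, was at 22.02, 17.6 and 9.74 CPM in MiRNC149, MiRNC640 and MiRNC670, and at 59.3, 63.2 and 105 CPM in Nf803, Nf809 and Nf827 (log2 fold change -2.20, SE 0.35, adjusted p = 0.0227). H2-Q4 fell from 94.4 ± 35.8 to 32.3 ± 6.67 CPM (adjusted p = 0.0261), and H2-M3, whose product presents formylated peptides, from 58.8 ± 36.2 to 14.8 ± 3.77 CPM (adjusted p = 0.039). Counts of H2-T23 and H2-Q4 are uncertain, with 13.6% and 21.8% of their windows shared with other genes. Of the peptide loading and trimming helpers, 0 of 16 were called in either direction by edgeR (median -0.23). In this list 5 were at an unadjusted p under 0.05 (26.7% of all tested genes were) and 3 were called lower by DESeq2. Pdia3, encoding the ERp57 of the loading complex, was at 251.3 ± 9.94 against 381 ± 84.7 CPM (log2 fold change -0.60, SE 0.17, adjusted p = 0.0708). Calr, encoding the chaperone calreticulin, was at 132 ± 14.96 against 208 ± 51.9 CPM (-0.66, SE 0.19, adjusted p = 0.0739).

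Of the 26 tested genes for class I transcription and interferon signalling, 5 were called lower and 0 higher (median log2 fold change -0.54). Irf8, a transcription factor of myeloid cells and B cells, went from 36.9 ± 20.05 CPM in Nf1KO down to 8.76 ± 1.597 CPM (-2.07, SE 0.39, adjusted p = 0.0263). Ifngr2, a chain of the gamma interferon receptor, was at 32.5, 26.1 and 31.4 CPM in MiRNC149, MiRNC640 and MiRNC670 and at 52.8, 49.5 and 68.4 CPM in Nf803, Nf809 and Nf827 (-0.92, SE 0.18, adjusted p = 0.0273). Ciita, the class II transactivator and a relative of Nlrc5, fell from 74.6 ± 44.3 to 15.5 ± 4.95 CPM (-2.27, SE 0.49, adjusted p = 0.0337). The other called genes, named after their values were seen, were Nfya, a subunit of the CCAAT-binding NF-Y (-0.64, SE 0.15), and the interferon regulatory factor gene Irf2 (-0.54, SE 0.13). Of 4 tested ubiquitin-like and interferon-induced genes, Isg15 was called lower (-2.30, SE 0.57, adjusted p = 0.0467). Of 9 class II genes, 6 were called lower and 0 higher, with log2 fold changes from -5.41 to -1.08 and a median of -2.62. H2-Ab1, a class II beta chain, was at 226, 142 and 168 CPM in MiRNC149, MiRNC640 and MiRNC670 and at 1108, 441 and 2103 CPM in Nf803, Nf809 and Nf827. As for the members, Nf827 was highest, and Nf809 was the lowest of its group, as it was for 7 of the 10 members.

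**Figure D4:**
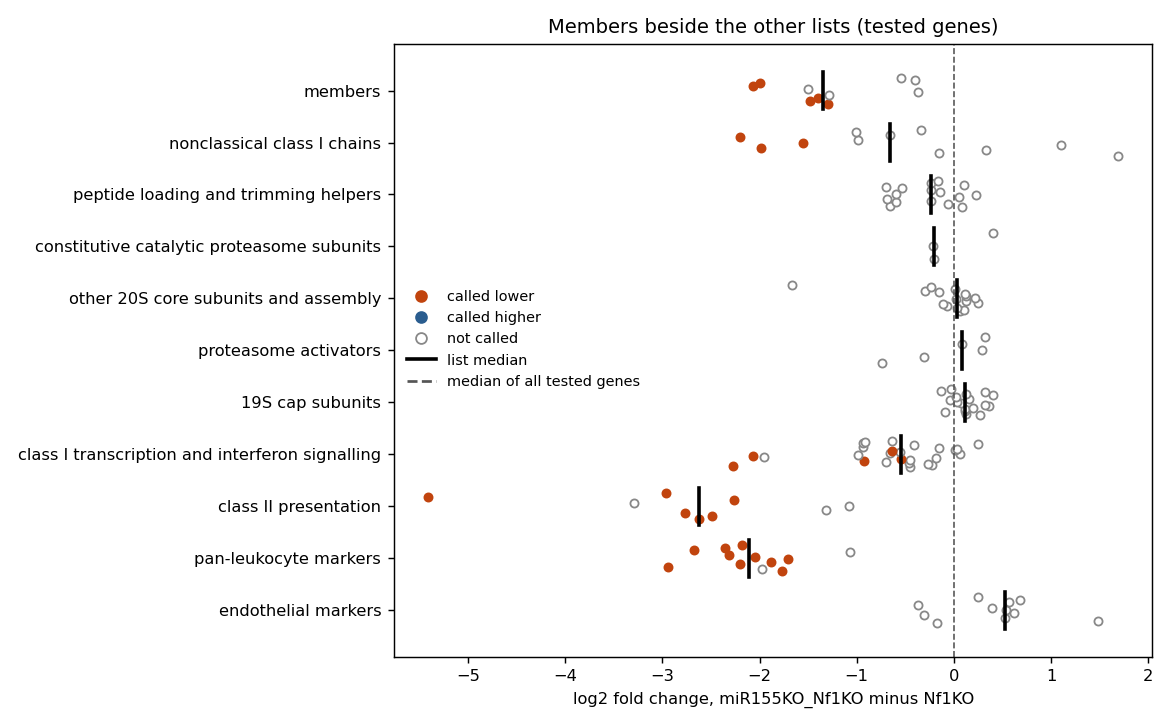
Log2 fold changes (miR155KO_Nf1KO minus Nf1KO) of every tested gene in the members and in 10 other lists, with filled points for genes at an adjusted p under 0.05 in edgeR and black bars for list medians. The median is -1.35 for the members, 0.03 for the other 20S core and assembly genes, 0.12 for the 19S cap, -2.62 for class II and -2.11 for pan-leukocyte markers.

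Pan-leukocyte markers, like the members, were lower in the miR155KO_Nf1KO group, though the order of tumours within that group differed. Of 12 pan-leukocyte markers, 10 were called lower and 0 higher (median log2 fold change -2.11), none was at 0 in a group, and their summed level was 232 to 417 CPM in miR155KO_Nf1KO and 749 to 1961 CPM in Nf1KO. Ptprc, encoding CD45, was at 74.7, 40.5 and 53.3 CPM in MiRNC149, MiRNC640 and MiRNC670 and at 320, 172 and 586 CPM in Nf803, Nf809 and Nf827 (-2.68, SE 0.46, adjusted p = 0.0243). Macrophage markers were called lower in 6 of 12 cases (551 to 1152 against 1469 to 2509 summed CPM) and dendritic cell markers in 4 of 8 tested (60.7 to 107 against 212 to 488 summed CPM). In whole tumours, fewer cells of a type and less RNA per cell cannot be told apart, and the part of leukocytes in the members' levels was not tested.

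The members were also set against the leukocyte markers within each tumour. The mean log2 CPM of the members minus that of the pan-leukocyte markers was 0.82, 1.72 and 0.54 in MiRNC149, MiRNC640 and MiRNC670 and 0.03, 0.35 and 0.16 in Nf803, Nf809 and Nf827. This difference was higher in all 3 miR155KO_Nf1KO tumours (1.03 ± 0.62 against 0.18 ± 0.16, exact permutation p = 0.1, the smallest the design allows), so the marker list was lower by more than the members were. The difference between the groups was 0.85, and 0.50 without MiRNC640. Against the class II genes, a comparison added after the values were seen, the members stood at 0.98, 1.38 and 0.78 in the first group and -0.40, 0.62 and -0.47 in the other, with no overlap. MiRNC640 had the lowest leukocyte level of all tumours (-2.54 from the Nf1KO mean), while its members stood at -0.99, about where those of MiRNC149 stood (-0.97) and above those of MiRNC670 (-1.57).

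**Figure D5:**
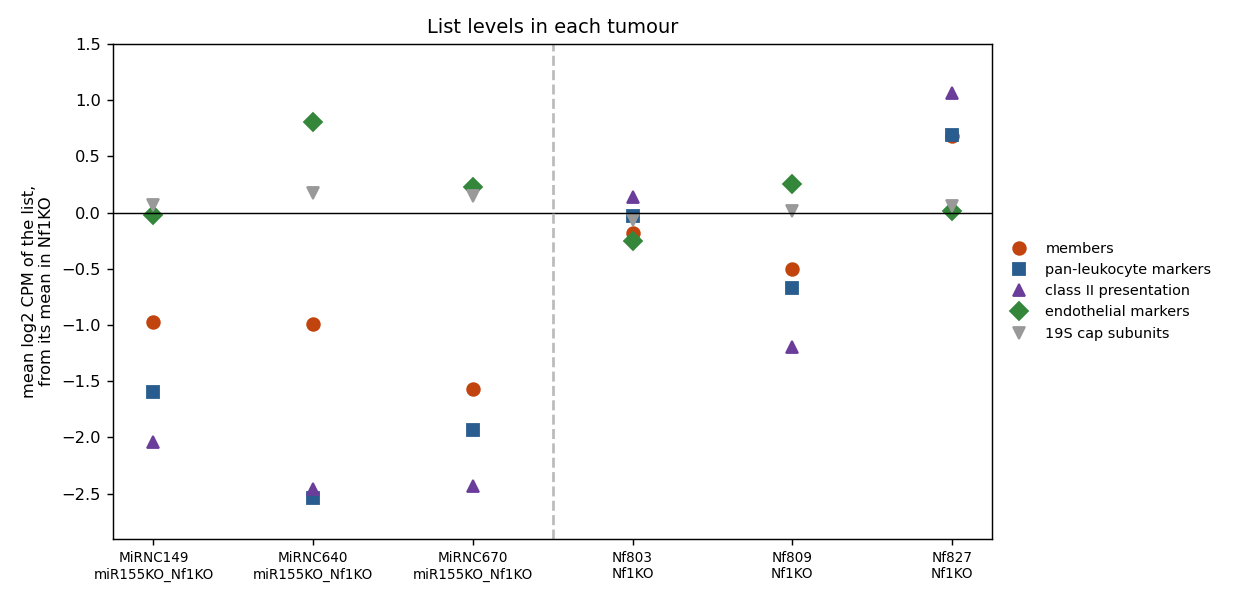
Mean log2 CPM of 5 gene lists in each tumour, given as the difference from the mean over the 3 Nf1KO tumours (0 line). The members lie between -1.57 and -0.97 in miR155KO_Nf1KO and between -0.50 and 0.68 in Nf1KO, the leukocyte markers lie lower than the members in the first group, and the 19S cap subunits stay within 0.17 of the line.

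Other cell type markers differed as well. Neuron markers were called higher in 7 of 9 cases (5422 to 8575 against 1350.3 to 2613 summed CPM). Fibroblast markers were called lower in 3 of 8 cases (4770.3 to 6086 against 9862 to 10543 summed CPM). None of the 11 endothelial markers was called in edgeR, with 1 at an unadjusted p under 0.05 and 0 called lower by DESeq2, and their sums overlapped (220.3 to 413 against 233 to 325 CPM). The part of these shifts in the members' levels was not tested.

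The 10 genes whose profile over the 6 tumours was most like the members' median profile were sought among 9860 genes with a mean log2 CPM of at least 3. Likeness was the root mean square distance between log2 profiles centred on their own mean, as a description. In order these were Coch (distance 0.131), Tifab (0.149), Gbp9 (0.1602), Slfn5 (0.188), Igtp (0.201), Iigp1 (0.205), AW112010 (0.208), Tor3a (0.210), Irgm2 (0.210) and Grn (0.230). Gbp9, Igtp, Iigp1 and Irgm2 encode interferon-inducible GTPases. Gbp9 was at 49.5, 46.2 and 38.7 CPM in MiRNC149, MiRNC640 and MiRNC670 and at 96.1, 65.8 and 181 CPM in Nf803, Nf809 and Nf827 (edgeR adjusted p = 0.0547). Of the 10, only AW112010 (adjusted p = 0.0456) and Grn (adjusted p = 0.039) were called lower. Because the 10 were chosen by this profile, their order of tumours and their lower level in miR155KO_Nf1KO follow from the choice. They are no separate result. Among the members themselves Psmb8 lay closest to the median profile (0.177), with H2-K1 (0.198), B2m (0.20) and H2-D1 (0.236) next and Tap2 (0.572) farthest.

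Since the study looked for targets of miR-155, the members' 3′ UTRs were searched for its sites. Capitals in the mature sequence (RefSeq, GRCm38.p6, chr16:84714143-84714165, +) mark the seed, bases 2 to 8.
mmu-miR-155-5p: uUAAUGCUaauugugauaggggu
The sites sought were AGCATTA, which pairs with the seed, and GCATTAA, and the 8-base site AGCATTAA that joins them. None of the 10 members had one in its longest annotated 3′ UTR, of 58 bases (Psmb10) to 1200 bases (Nlrc5). Of 14062 tested genes with an annotated 3′ UTR, 14.8% had such a site and 3.51% the 8-base site. No match says only that these letters are not in these 3′ UTRs.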

How the data were processed

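The values are raw read counts for each gene symbol, which the authors deposited as a single unscaled table with a column for each tumour. HISAT2 2.0.5, featureCounts 1.5.2 and mm10 are named, per the submitters' processing notes. Annotation, strand setting and the handling of reads with several matches were not given in the sources used here. RNA was extracted with an RNeasy Plus Micro kit and libraries made with a Nextera XT kit, per the labels' protocols.

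Replicates were checked first: their counts differed by 23.17 to 102.2 times the variance of Poisson sampling, so each was counted as a sample of its own. The counts were fitted over the whole table with edgeR 4.0.16 in R 4.3.3 (filterByExpr with a minimum count of 10 and a minimum total of 15, TMM scaling, group as the only term, quasi-likelihood test, two-sided, Benjamini-Hochberg over 15604 genes). CPM use TMM-scaled library sizes, and log2 CPM a prior count of 2. At 13061129 to 16333181 reads per tumour, precision is set by the spread between samples more than by counting error. Alternatives were DESeq2 1.42.0, voom in limma 3.58.1, other scalings and filters, sex as a covariate and leaving out tumours. The test was tried on simulated counts first. Exon lengths and 3′ UTRs came from GENCODE M21, with 23376 of 24421 symbols matched.

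The members and lists were chosen with earlier results of these data known. Named genes were all members, Mir155hg, the 3 genes of each pathway list with the smallest p (not all are printed), Ptprc and the 10 genes most alike in profile. Adipocyte, mast cell, skeletal muscle, T and NK cell, B cell and perineurial marker lists had 0, 0, 0, 1, 1 and 1 genes called lower and none called higher in edgeR, and the Schwann cell marker list is not reported here.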

Additional observations from a re-analysis of the deposited data

Results flagged for a closer look

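Psmb1, which encodes a constitutive subunit of the 20S core, moved in opposite directions in the sexes, as did 10.3% of all tested genes (1602) in these directions and 5 of the 16 other 20S core and assembly genes, Psmb1 included. The difference of mean log2 CPM, miR155KO_Nf1KO minus Nf1KO, was -0.12 in females, where the miR155KO_Nf1KO tumour was below both Nf1KO tumours. It was 0.39 in males, where both miR155KO_Nf1KO tumours were above Nf809. The difference between the sexes was not tested, each sex had 1 tumour in one of the groups, and over all tumours Psmb1 was not called (adjusted p = 0.49).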

How the results depend on the processing

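All 10 members kept a negative log2 fold change in every alternative fit run. The count of members called lower, 5, was the same with DESeq2 size factors, upper quartile or total count scaling in edgeR. It was also 5 without the filter on low counts and with a filter at 1 CPM in 3 tumours. Those fits called 3.74% to 5.12% of all genes lower. The count was 6 with DESeq2 (9.44% of all genes called lower) and with weighted voom (7.63%). It was 3 with voom (Tap1 and Psmb9 lost, 3.88% of all genes) and 1 with sex as a covariate (3.22%). Without both MiRNC670 and Nf809, the tumours high in muscle genes, it was 2 (Tap1 and Psmb9, 3.24% of all genes). Leaving out single tumours gave 0 to 6 in edgeR, with a smallest adjusted p among members of 0.0537, 0.0722, 0.115, 0.0842 and 0.0668 in the fits with 0 calls (without MiRNC149, MiRNC640, MiRNC670, Nf803 and Nf827) and 6 to 7 members at an unadjusted p under 0.05, which 20.2% to 27.9% of all genes reached in those fits. Over all genes, edgeR called 0 without MiRNC670, Nf803 or Nf827. In DESeq2, leaving out single tumours, added after seeing the data, gave 5 to 8 members called lower, where 5.73% to 9.99% of all genes were. The fit with 8 members, without Nf809, was the one with the highest share over all genes.

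The nonclassical chains called numbered 5 with DESeq2, 5 at an adjusted p under 0.1 and 0 to 3 with tumours left out. Peptide loading helpers numbered 3 with DESeq2, 4 with weighted voom, 1 without MiRNC670 and Nf809, 3 at an adjusted p under 0.1 and 0 to 3 with tumours left out. Proteasome activators numbered 1 with DESeq2, 1 at an adjusted p under 0.1 and 0 to 1 with tumours left out. Class I transcription and interferon signalling genes numbered 14 with DESeq2, 10 with weighted voom, 2 with sex as a covariate, 14 at an adjusted p under 0.1 and 0 to 9 with tumours left out. Class II genes numbered 0 to 8 and pan-leukocyte markers 0 to 12 with tumours left out. Ubiquitin-like and interferon-induced genes numbered 3 with DESeq2 and at an adjusted p under 0.1, 0 with voom, with weighted voom, with sex as a covariate and without MiRNC670 and Nf809, and 0 to 2 with tumours left out. Of all tested genes, 9.44% were called lower with DESeq2, 3.88% with voom and 7.63% with weighted voom. The share was 3.22% with sex as a covariate, 3.24% without MiRNC670 and Nf809, and 0% to 6.61% in edgeR with 1 tumour left out. At an adjusted p under 0.1 the share over all genes is not given here. That threshold is loose: Irgm2, at rank 2695 of 15604 by p, still passed it (edgeR adjusted p = 0.0994). The log2 ratio of H2-K1 to B2m ran from -0.17 to 0.01 with tumours left out (0.01 without Nf827) and that of Tap1 to Psmb9 from -0.04 (without MiRNC149) to 0.28. The cause of these changes was not tested beyond the smaller number of tumours. No paired analysis was possible because the groups share no replicate numbers.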
